A study of Mus musculus with 12 samples.

Results

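The R-spondin module comprises the secreted ligands Rspo1, Rspo2, Rspo3 and Rspo4, their receptors Lgr4, Lgr5 and Lgr6, and the membrane ubiquitin ligases Znrf3 and Rnf43. It was examined in side population cells, the cells of a dissociated tissue that expel the dye Hoechst. Members were all probe sets of the array whose single gene symbol was one of these 9 names, with no filter on level, which gave 15 of 45037 probe sets and 9 of 18193 named genes. The cells came from mouse extraocular muscle, which moves the eye (EOM, 6 arrays), and from tibialis anterior, a hind limb muscle (TA, 6 arrays). The labels name no treatment and no genetic change for either group, and each array held 1 independently isolated preparation. Strain, age and sex of the mice, and whether a preparation pooled several animals, are not given in the sources used here, so that the errors below are those between preparations.

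R-spondins strengthen Wnt signalling. Znrf3 and Rnf43 mark Frizzled and Lrp6, the Wnt receptors at the cell surface, for removal. An R-spondin that binds an Lgr receptor and one of these ligases together clears the ligase from the membrane, and the Wnt receptors accumulate. Lgr5, Znrf3 and Rnf43 are themselves known as targets of beta-catenin, and Lgr5 is best known as a marker of stem cells in the intestine and the hair follicle. In muscle, R-spondins have been linked to the differentiation of myogenic progenitors.

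Lgr5 was the only one of the 9 genes that passed the test between the muscles, and it was higher in EOM. Its signal was 80.8 ± 30.4 in EOM against 15.6 ± 18.5 in TA (SD, n = 6), and the log2 fold change of EOM over TA was 1.71 ± 0.39 (SE, limma adjusted p = 0.0109). The difference was seen with 1 of the 2 Lgr5 probe sets. None of the 9 genes was called lower. By the same test 2.39% of all genes were higher and 4.29% were lower in EOM, so a count of 1 among 9 genes says nothing about the module as a whole. Before adjustment 3 of the 9 genes had a limma p under 0.05 (Lgr5 and Rspo1 higher, Rspo3 lower), where 18.3% of all genes did. The median log2 fold change over the 9 genes was 0.21, beside -0.03 over all genes.

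Signals here are MAS5 intensities on a linear scale, scaled by the authors so that each array has the same trimmed mean. Differences are EOM minus TA on the log2(signal + 16) scale, which understates the change of dim probe sets, and each gene is represented by whichever of its probe sets was brightest on average. Most members were dim. The median signal of an array lay between 31.2 and 43.4 on 9 arrays, and 8 of the 15 member probe sets, standing for 7 genes, were in the upper 60% of all probe sets by mean signal. The other 7 probe sets, which included the only ones of Rspo4 and Rnf43, were in the lowest 40%. No detection call was used, so a signal near or under the array's median cannot be told from background, and for such probe sets a missing call is weak information. The labels give no array a batch.

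EOM 1, TA 3 and TA 5 stood apart, with median signals of 87.2, 69.6 and 63.2, and with 3' to 5' signal ratios of the beta-actin control, which rise when RNA is shortened, of 104, 165 and 100.2 against 5.27 to 68.6 on the other 9. By the same ratio of the Gapdh control, EOM 1 (9.88) and TA 3 (17.3) lay within the range of the other 9 arrays, 4.92 to 24.5, and only TA 5 (34.5) lay outside it. Values without these 3 arrays are given below for the members. Cell type markers also differed between the groups. Of 16 endothelial markers 14 fell and 0 rose in EOM, as did 8 and 0 of 12 for pericytes and smooth muscle, 8 and 0 of 12 for leukocytes, and 4 and 0 of 6 for tendon cells. Fibroblast and fibro-adipogenic progenitor markers gave 6 that rose and 0 that fell of 16. Without the 3 arrays they gave 10 and 0, where 6.85% of all genes rose and 7.48% fell. Schwann cell and glial markers gave 0 called of 6 by limma, with 0 at an unadjusted p under 0.05, and mature muscle fibre markers gave 1 lower (Acta1) and 0 higher of 8. The Acta1 call ended on leaving out any array other than EOM 1, TA 1 or TA 3 (adjusted p up to 0.127), with the fixed or random replicate block (adjusted p of 0.0851 and 0.0607), with a constant of 64 (adjusted p = 0.0847), with quantile normalization (adjusted p = 0.0562) and with median centring (adjusted p = 0.0916). In bulk preparations, fewer cells of a type and less RNA per cell cannot be told apart.

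**Figure D1:**
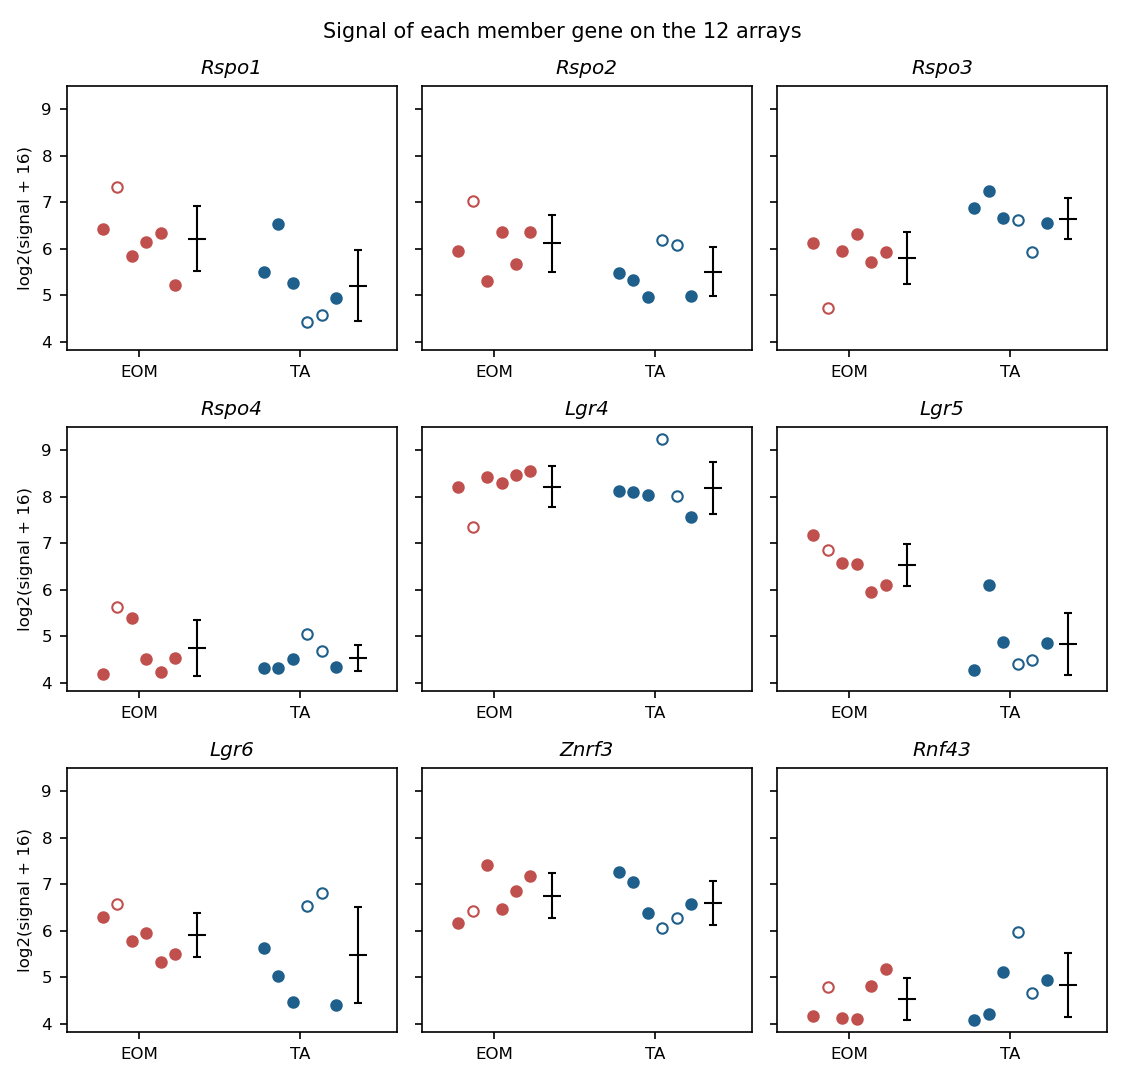
Signal of the representative probe set of each member gene, as log2(signal + 16), on the 6 EOM arrays (red) and 6 TA arrays (blue), in the order of the replicate numbers; open circles are EOM 1, TA 3 and TA 5, and the bar is the mean ± SD of the group. For Lgr5, 5 of 6 TA arrays lie under all EOM arrays, and for Rspo3, 5 of 6 TA arrays lie above all EOM arrays.

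Among the ligands, Rspo1 and Rspo3 had estimates in opposite directions, and neither passed the test. Rspo1, known for its role in ovary determination, ranged from 21.2 to 145.8 in EOM with a median of 59.5, and from 5.5 to 76.8 in TA with a median of 18.5. The highest EOM value was that of EOM 1, the TA values of TA 3 and TA 5 were the lowest of all (5.5 and 7.8), and TA 1, at 76.8, lay above all EOM arrays other than EOM 1. Its signal exceeded the array's own median on 5 of 6 EOM arrays and 1 of 6 TA arrays. The log2 fold change was 1.01 ± 0.43 (SE, 95% interval 0.11 to 1.91, adjusted p = 0.277), and without EOM 1, TA 3 and TA 5 it was 0.44 ± 0.37 (adjusted p = 0.600). The larger estimate thus rests in part on these 3 arrays.

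Rspo3, a ligand required for blood vessel development, had the lower estimate in EOM. It ranged from 10.6 to 63.5 in EOM with a median of 45.4, and from 44.5 to 135.7 in TA with a median of 83.8. In TA, 5 of 6 arrays lay above every EOM array, and the exception was TA 5 at 44.5. The lowest EOM value was that of EOM 1. The log2 fold change was -0.85 ± 0.35 (SE, 95% interval -1.59 to -0.12, adjusted p = 0.255). Without EOM 1, TA 3 and TA 5 the groups separated, at 36.5 to 63.5 in 5 EOM arrays and 78.5 to 135.7 in 4 TA arrays, where 8.09% of all genes had EOM below TA without overlap. The estimate was then -0.83 ± 0.27 and still did not pass (adjusted p = 0.0623). The second Rspo3 probe set was among the dimmest, at 3.42 ± 2.51 in EOM against 13.5 ± 14.6 in TA (SD, n = 6), and its estimate was lower in EOM too (-0.48 ± 0.28, adjusted p = 0.505). Endothelial markers, whose summed signal was 2417 to 4224 in EOM and 16579 to 42473 in TA, moved in the same direction as the Rspo3 estimate, as did the pericyte and smooth muscle, leukocyte and tendon lists. The part of these cell types in the Rspo3 values was not tested.

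Rspo2, a ligand known from limb and lung development, ranged from 23.8 to 115.1 in EOM with a median of 56.1, and from 15.3 to 57.4 in TA with a median of 26.2. The 3 highest EOM arrays lay above every TA array. EOM 1 was highest in its group, and TA 3 and TA 5 were highest in theirs. The difference of 0.61 ± 0.39 did not pass (SE, 95% interval -0.19 to 1.42, adjusted p = 0.572), and without the 3 arrays it was 0.75 ± 0.33 (adjusted p = 0.205). The second Rspo2 probe set gave -0.06 ± 0.36 (adjusted p = 0.979), at 20.4 ± 13.0 in EOM against 22.1 ± 13.7 in TA (SD, n = 6). The 2 probe sets thus differed in the sign of their estimates.

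Rspo4, the ligand known from nail formation, had a signal under the array's median on all 12 arrays, at 2.3 to 33.1 in EOM and 3.8 to 17.0 in TA. Its difference was 0.21 ± 0.29 (SE, adjusted p = 0.864). Without the 3 arrays it was 0.20 for Rspo4, -0.056 for the second Rspo2 probe set and -0.64 for the second Rspo3 probe set, with adjusted p of 0.729, 0.967 and 0.221. A level of Rspo4 was not resolved in either muscle.

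Lgr5 was the receptor with the clearest difference. In EOM its signal was 46.1 at the lowest, 78.7 at the median and 128.1 at the highest, and in TA it was 3.4, 9.65 and 52.4. The order of the EOM arrays from high to low was EOM 0 (128.1), EOM 1 (100.4), EOM 2 (78.8), EOM 3 (78.5), EOM 6 (53.0) and EOM 5 (46.1). In TA the values were TA 1 (52.4), TA 2 (13.4), TA 6 (12.8), TA 5 (6.5), TA 3 (5.0) and TA 0 (3.4). The groups overlapped through a single array, TA 1, which lay above EOM 5 and just under EOM 6. All 6 EOM signals exceeded the median of their array, as did TA 1 alone among the TA signals. EOM 1 (100.4 over a median of 87.2) and EOM 5 (46.1 over 40.5) did so by little.

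The Lgr5 difference corresponds to 3.27-fold (95% interval 1.87 to 5.72) on the scale with the added constant. Since 5 of 6 TA signals lay under the median of their array, the size of the difference depends on that constant. With constants of 1 and 64 in place of 16 the log2 fold change was 2.77 and 0.86, and Lgr5 was called with both (adjusted p of 0.0113 and 0.0175). The call did not rest on a single array. Leaving out any 1 of the 12 arrays gave log2 fold changes of 1.58 to 1.96 with adjusted p of 0.00368 to 0.0399, the largest estimate being that without TA 1. Without EOM 1, TA 3 and TA 5 the estimate was 1.45 ± 0.38 (adjusted p = 0.0205). The second Lgr5 probe set had a signal under the array's median on all 12 arrays, at 9.20 ± 6.09 in EOM against 14.6 ± 9.01 in TA (SD, n = 6), and gave -0.26 ± 0.29 (adjusted p = 0.819), or -0.13 without the 3 arrays (adjusted p = 0.873). Averaging both probe sets gave 0.72, which just missed the threshold (adjusted p = 0.0515). The part of the Lgr5 transcript that either probe set detects is not given in the sources used here.

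Among the marker lists that moved between the muscles along with Lgr5 were those of fibroblasts, whose summed signal was 157889 to 379642 in EOM and 99675 to 223018 in TA, and, in the opposite direction, those of vascular cells, leukocytes and tendon cells. Among the fibroblast markers Pi16 (log2 fold change 5.55) and Fbln1 (2.26) rose most. The fibroblast sum was mostly that of the bright genes Gsn (-0.14), Dcn (0.16), Col1a2 (-0.09) and Col3a1 (0.003), none of which was called. The summed signal of the leukocyte markers was 506 to 4719 in EOM and 4778 to 13909 in TA, and that of the pericyte and smooth muscle markers was 6199 to 10814 and 20629 to 34681. That of the tendon markers, of which Tnmd (-3.78) and Kera (-3.72) fell most, was 22493 to 76749 and 32931 to 48034. Most of this sum was Egr1, at 20619 to 75914 in EOM and 15730 to 26790 in TA. Egr1 was not called (0.52, limma adjusted p = 0.671), so the sum says little of the other tendon markers. Satellite cell and myoblast markers gave 2 lower (Itga7 and Pax7) and 0 higher of 10, with summed signals of 1710 to 3146 in EOM and 1618 to 2392 in TA. Most of that sum was Vcam1 (-0.04) and Sdc4 (0.33), neither of them called. Pax7, which defines satellite cells, was at 5.73 ± 3.11 in EOM against 52.9 ± 41.4 in TA (SD, n = 6). The Pax7 call ended on leaving out any EOM array other than EOM 1, or TA 2 or TA 5 (adjusted p up to 0.0729), with the replicate block (adjusted p = 0.0526) and with a constant of 64 (adjusted p = 0.0584). No marker was listed at 0, since the lowest signal in the table was 0.1. The part of these cell types in the Lgr5 difference was not tested.

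Lgr4, the most widely expressed of these receptors, had a signal above the array's median on all 12 arrays and did not pass the test. It ranged from 147.2 to 362.5 in EOM with a median of 314, and from 174.0 to 591.6 in TA with a median of 254. The lowest EOM value was that of EOM 1, and the highest TA value that of TA 3. The log2 fold change was 0.04 ± 0.29 (SE, 95% interval -0.58 to 0.65, adjusted p = 0.983). Without EOM 1, TA 3 and TA 5 the groups no longer overlapped, with EOM at 282.6 to 362.5 and TA at 174.0 to 263.2, where 7.72% of all genes had EOM above TA without overlap. The estimate was then 0.44 ± 0.19 and did not pass (adjusted p = 0.196). The second Lgr4 probe set was dim, with 1 EOM array (EOM 1, 90.3) and no TA array above its median, and gave 0.46 ± 0.38 (adjusted p = 0.719). Without EOM 1 its estimate was 0.11, and without the 3 arrays it was 0.066 (adjusted p = 0.945).

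Lgr6, a receptor known from skin and hair follicle progenitors, changed with the 3 arrays as well. Its signal was 23.9 to 78.7 in EOM with a median of 42.5, and 5.0 to 97.0 in TA with a median of 25.1. TA 5 (97.0) lay above every EOM array and TA 3 (76.2) above every EOM array other than EOM 1 (78.7). The other 4 TA arrays were at 33.6 or lower. The difference was 0.42 ± 0.45 with all arrays (SE, adjusted p = 0.812) and 0.89 ± 0.35 without the 3 arrays (adjusted p = 0.144). The second Lgr6 probe set, highest on EOM 1 at 167.6, gave 0.57 ± 0.47 (adjusted p = 0.721) and 0.19 ± 0.37 without the 3 arrays (adjusted p = 0.851). Neither probe set therefore passed, and they moved in opposite ways when the same arrays were left out.

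Neither ubiquitin ligase passed the test. Znrf3 was at 97.3 ± 38.1 in EOM against 85.6 ± 34.5 in TA (SD, n = 6), with ranges of 56.2 to 153.8 and 50.8 to 138.4 that overlapped almost fully. Its log2 fold change was 0.16 ± 0.33 (95% interval -0.52 to 0.83, adjusted p = 0.925), and its second probe set gave -0.14 ± 0.43 (adjusted p = 0.953). Rnf43 was under the array's median on all 12 arrays, at 8.03 ± 7.78 in EOM against 15.4 ± 16.9 in TA (SD, n = 6), and its estimate was -0.30 ± 0.32 (adjusted p = 0.816). Without the 3 arrays the estimates were 0.0042 for Znrf3, 0.23 for its second probe set and -0.11 for Rnf43, with adjusted p of 0.996, 0.842 and 0.898. The highest Rnf43 signal, 47.0, was that of TA 3.

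**Figure D2:**
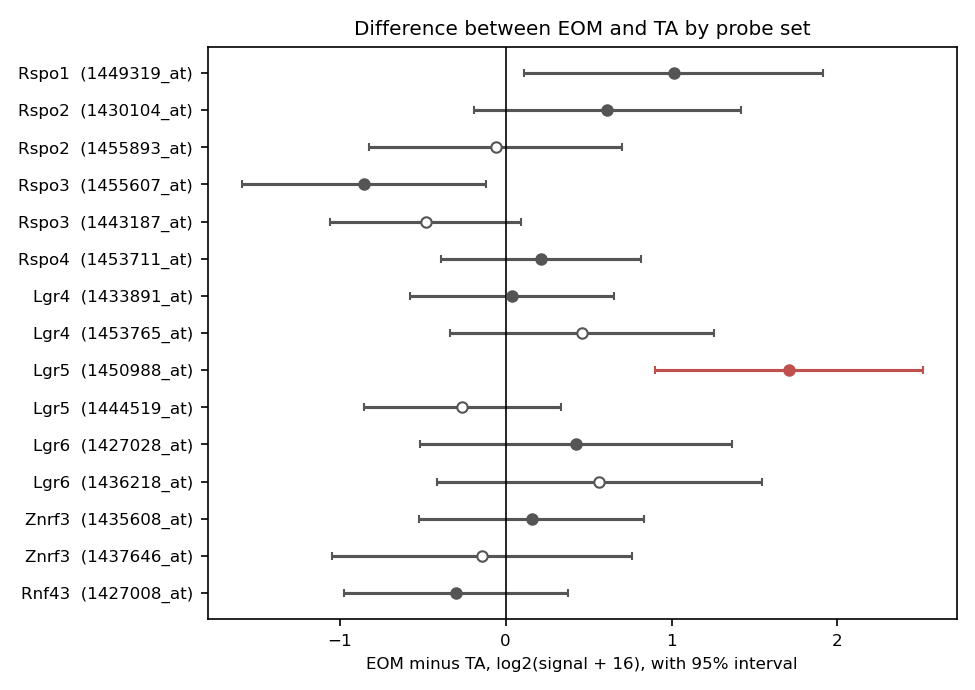
Difference between EOM and TA for all 15 member probe sets on the log2(signal + 16) scale, with 95% intervals; filled points are the probe sets that represent a gene, and red marks the one past the limma threshold. The first Lgr5 probe set is at 1.71, and the intervals of 12 of the 15 probe sets include 0.

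The Wnt pathway around these genes was described with 5 lists, and few of their genes were called. Of 12 further partners of R-spondins and Lgr receptors, 2 rose, 1 fell and 9 did not pass, with a median of -0.03. Without the 3 arrays Iqgap1 was called lower as well (-1.05, adjusted p = 0.0310), named after its value was seen. Both that rose were glypicans, heparan sulphate proteoglycans of the cell surface. Gpc3 was at 330.4 to 1100.6 in EOM and 101.2 to 273.7 in TA, without overlap, where 1.70% of all genes had EOM above TA without overlap. Its log2 fold change was 1.76 ± 0.30 (SE, adjusted p = 0.000923). EOM 1, at 104.4, was the only EOM array within the TA range of Gpc6. Gpc6 was at 521 ± 228 in EOM against 144 ± 41.3 in TA (SD, n = 6, 1.58 ± 0.37, adjusted p = 0.0140); this call was lost with quantile normalization (adjusted p = 0.0825) and median centring (adjusted p = 0.121).

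The syndecan Sdc3, another heparan sulphate proteoglycan, fell from 411 ± 111 in TA to 182 ± 72.0 in EOM (SD, n = 6, -1.14 ± 0.27, adjusted p = 0.0167). The call ended without EOM 3 or EOM 6 (adjusted p of 0.0558 and 0.0538) and with median centring (adjusted p = 0.0895), and the mean over all Sdc3 probe sets was -0.07 (adjusted p = 0.958). The replicate number as a block ended it too (adjusted p = 0.0505). Tnfrsf19, a receptor that associates with Lgr5, was at 0.11 ± 0.37 (adjusted p = 0.960). Ndp, the ligand norrin, which can bind Lgr4, was at -0.18 ± 0.36 (adjusted p = 0.925).

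Frizzled receptors, co-receptors and related Wnt receptors gave 0 called of 17 by limma, although 5 had an unadjusted p under 0.05 with a higher and 1 with a lower estimate in EOM. Lrp6, the co-receptor that Znrf3 and Rnf43 remove, was at 420 ± 83.3 in EOM against 242 ± 111 in TA (SD, n = 6), and TA 3, at 462.7, was the only TA array within the EOM range. Its log2 fold change was 0.82 ± 0.27 (SE, adjusted p = 0.1001), and without TA 3 it was 1.02 (adjusted p = 0.0120). Lrp6 passed in 7 of 25 alternatives and in none of the others. Besides fits with arrays left out, these were array weights (limma adjusted p = 0.000961), the mean of its probe sets (0.77, adjusted p = 0.0235), the actin ratio as covariate (adjusted p = 0.0366) and the 60% filter (adjusted p = 0.0465). Without EOM 1 this list had 5 higher and 0 lower, where 6.30% of all genes were higher and 6.68% lower. Without EOM 1, TA 3 and TA 5 it had 5 higher and 1 lower, where the shares of all genes were 6.85% and 7.48%. The 5 without EOM 1 were Fzd1 (0.95), Fzd2 (0.86), Fzd5 (0.99), Ror1 (1.44) and Lrp6 (0.82). All but Lrp6 were named after their values were seen. Fzd4, which with Lrp5 and norrin acts in retinal vessels, was at -0.39 ± 0.31 with all arrays (adjusted p = 0.709).

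The cytoplasmic cascade from Dishevelled to the Tcf factors gave 0 called of 17 by limma, with 2 higher and 1 lower at an unadjusted p under 0.05. Without EOM 1 it had 2 higher (Dvl2 and Axin1) and 0 lower, where 6.30% of all genes were higher and 6.68% lower. Without the 3 arrays it had 0 higher and 1 lower (Apc, -0.91, limma adjusted p = 0.00399), beside 6.85% and 7.48% of all genes. Dvl2, Axin1 and Apc were named after their values were seen. Beta-catenin itself, Ctnnb1, was at 8346 ± 2972 in EOM against 8601 ± 1172 in TA (SD, n = 6, -0.18 ± 0.35, adjusted p = 0.923); its estimate was 0.16 without EOM 1. Of 17 beta-catenin target genes measured 1 fell and 0 rose. It was the T-box factor Tbx3, at 62.3 ± 41.7 in EOM against 266 ± 74.2 in TA (SD, n = 6, -1.93 ± 0.32, adjusted p = 0.000521). The Tbx3 groups did not overlap, and 3.52% of all genes had EOM below TA without overlap. The mean of its probe sets was -0.71 and did not pass (adjusted p = 0.107).

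Axin2, the most general target of the pathway, did not pass the test. It ranged from 169.6 to 356.4 in EOM and from 134.3 to 270.6 in TA (0.37 ± 0.26, adjusted p = 0.644). Lef1, a target and a partner of beta-catenin, was at 63.1 ± 67.8 in EOM against 138 ± 96.7 in TA (SD, n = 6, -1.19 ± 0.52, adjusted p = 0.286), and it passed in 2 of 25 alternatives, without EOM 1 (-1.55, adjusted p = 0.0363) and with array weights (adjusted p = 0.0445). Without the 3 arrays Lef1 was at -1.05 (adjusted p = 0.167). Without EOM 1 the target list had 2 higher (Myc and Cd44) and 3 lower (Tbx3, Ccnd1 and Lef1), where 6.30% of all genes were higher and 6.68% lower. Without the 3 arrays it had 2 higher (Myc and Sox9) and 3 lower (Tbx3, Ccnd1 and Wif1), beside 6.85% and 7.48% of all genes. Cd44 and Lef1 were then no longer called. All but Tbx3 and Lef1 were named after their values were seen.

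Among 21 Wnt ligands and factors of their secretion 1 rose and 0 fell. It was Wnt11, a ligand known mainly from signalling that does not use beta-catenin. Its signal was 428 to 1094 in EOM and 175 to 385 in TA, without overlap, and the log2 fold change was 1.40 ± 0.27 (SE, adjusted p = 0.00288). Without EOM 1 the secretion factor Wls was higher too, at 1.26 (adjusted p = 0.00843), and without the 3 arrays Wls (0.86) and Wnt9a (0.71) were, both named after their values were seen. The receptors most like the Lgr family in sequence, those of the glycoprotein hormones and relaxins, gave 0 called of 4 by limma, with 1 at an unadjusted p under 0.05.

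**Figure D3:**
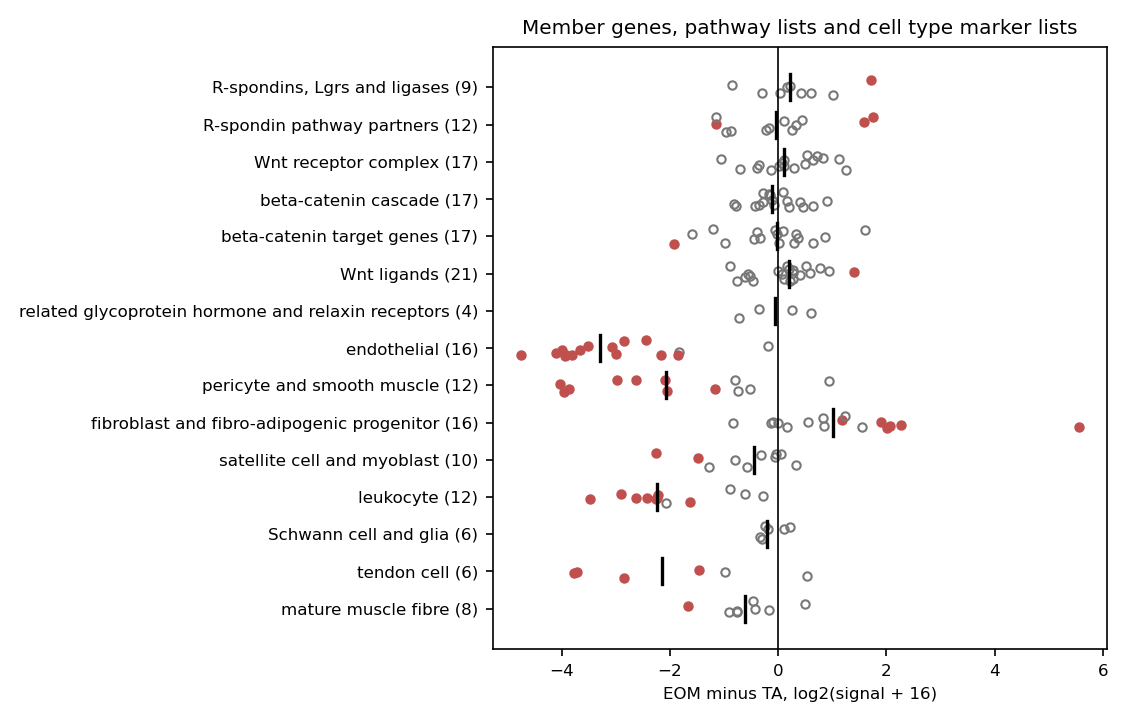
Difference between EOM and TA on the log2(signal + 16) scale for the 9 member genes, the pathway lists and the cell type marker lists, 1 point per gene; filled red points passed the limma threshold, the black line is the median of the list, and the number of genes is in brackets. The members and the Wnt lists lie around 0, while the endothelial list has a median of -3.29 and the fibroblast list one of 1.01.

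The genes whose signals followed each member most closely over the 12 arrays were found by Pearson correlation of log2 signals, as a description. The arrays share their scaling and 3 of them stand apart, so r over the other 9 is given as well. Correlation over both muscles favours genes that differ in the member's direction, so the direction of these genes is not separate information. For Lgr5 the closest were the membrane ubiquitin ligase Marchf8 (r = 0.939 over 12 arrays and 0.932 over 9), the tau tubulin kinase Ttbk2 (0.916 and 0.932) and the calcium sensor Doc2b (0.91 and 0.886). Of these, Doc2b also passed the test between the muscles (log2 fold change 2.41, adjusted p = 0.00125), while Marchf8 (0.49, adjusted p = 0.348) and Ttbk2 (0.58, adjusted p = 0.395) did not. For Rspo3 the closest were Phldb2 (0.951 and 0.904), the focal adhesion protein vinculin, Vcl (0.941 and 0.944), and caldesmon, Cald1 (0.933 and 0.865), a regulator of actomyosin. All 3 had lower estimates in EOM, at -1.13, -1.03 and -1.07, and did not pass (adjusted p of 0.117, 0.165 and 0.0660).

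The other members had close genes at r of 0.789 to 0.930 over 12 arrays. They were Ddx5, Zfp365 and Foxo1 for Rspo1, Usf2, Rnf225 and Slc12a9 for Rspo2, and Alkbh5, Acsl4 and Trim69 for Lgr4. For Lgr6 they were Prss44, Acvr1c and Olfr870, and for Znrf3 they were Casd1, Leprotl1 and Xrcc4. None of these 15 genes passed the test between the muscles. Rspo1 lost most without the 3 arrays, its r with Foxo1 going from 0.881 to 0.650.

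**Figure D4:**
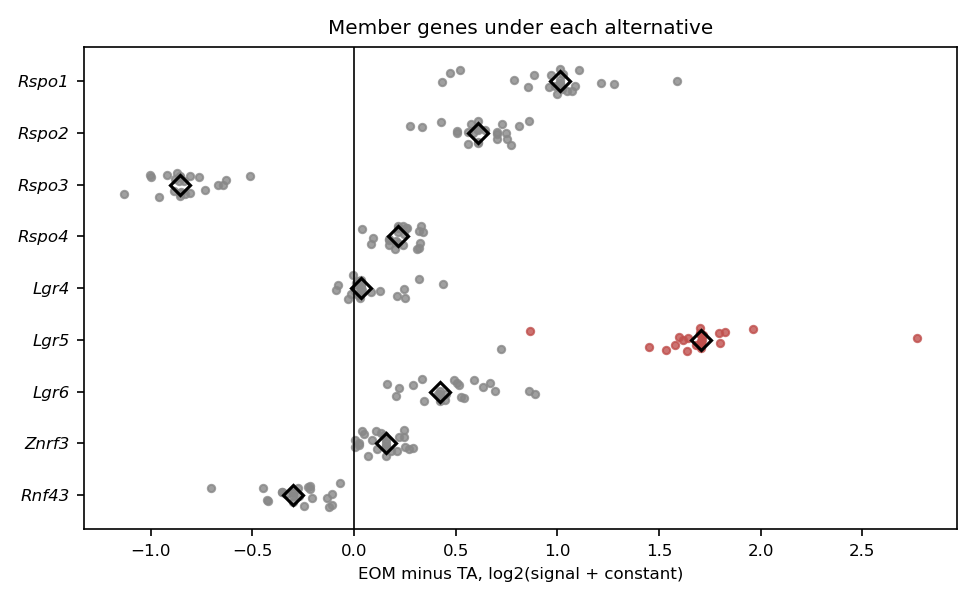
Difference between EOM and TA of the 9 member genes under each alternative processing (circles, red where limma's adjusted p was under 0.05) and with the main setting (diamonds); the horizontal axis is EOM minus TA on the log2(signal + constant) scale. Of the 24 alternatives that could test Lgr5, 23 had an adjusted p under 0.05, and none had for another member.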

How the data were processed

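Total RNA of side population cells was amplified in 2 rounds, biotin-labelled and hybridized to Affymetrix Mouse 430 2.0 arrays, per the labels' protocols. The deposited values are MAS5 signal intensities on a linear scale, per the labels, and MAS5 is also named in the submitters' processing notes. The 2% trimmed mean was 150 on every array, so the authors' scaling acted on whole arrays. Whether this scaling raised the background of the arrays with a high median signal was not tested. Groups and replicate numbers come from the sample titles, and no 2 columns were identical. The platform annotation named the probe sets (34945 with 1 symbol, 932 with several, 9160 with none; 204 symbols had no match in the GRCm38.p6 gene table, used for names only). The genome build of the array design is not given in the sources used here, so no coordinates are printed.

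All 45037 non-control probe sets were tested as log2(signal + 16) with limma 3.58.1 in R 4.3.3 (empirical Bayes with an intensity trend, two-sided) and adjusted by Benjamini-Hochberg at 0.05, with no level filter, so that every member was tested. On simulated data with the spread of these arrays, the fit was checked for recovery of known changes. The members, lists, tests and alternatives were chosen with earlier results of these data known. Named genes followed a rule: all members, up to 3 called genes per direction from each pathway list and up to 2 from each marker list, 7 genes whatever their result, and the 3 genes most correlated with each member in the upper 60% by mean signal. Genes outside this rule were named after their values were seen. Among them were Gsn, Dcn, Col1a2, Col3a1, Egr1, Vcam1 and Sdc4, given because they made up most of a marker sum. Alternatives varied the constant, scaling, filter, trend, array weights, replicate block, 3' to 5' ratio, probe set rule and arrays left out. The number of arrays limits the precision of every value.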

Additional observations from a re-analysis of the deposited data

Results flagged for a closer look

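Of 30 groups of 6 arrays (15 member probe sets in both muscles), 5 held 1 array far from the other 5. Its gap to its neighbour was above 0.625 of the whole range of log2 signals. About 1 in 20 independent groups of normally distributed values would pass this limit. The groups here share the same arrays and many of their signals are dim, so their count cannot be read against that rate. TA 1 was high for Lgr5 at 52.4, and without it the Lgr5 difference was larger. For the main Lgr4 probe set EOM 1 was low at 147 and TA 3 high at 592. On the second, dim Lgr4 probe set TA 2 was high at 27.5, and on the second, dim Rspo3 probe set EOM 1 was high at 8.3, both signals under the median of their array. EOM 1 and TA 3 are among the 3 arrays with a high median signal, and the part of that in these values was not tested.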

How the results depend on the processing

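Lgr5 was called under 23 of 24 alternatives and missed under the mean of its probe sets (0.72, adjusted p = 0.0515). The count of members higher in EOM was 1, and 0 with that mean and when the lowest 60% of probe sets were dropped, which removes Lgr5. Leaving out any 1 array kept it at 1. The count of lower members was 0 in all. All probe sets called numbered 1891, and 5038 with array weights, 4266 without EOM 1, TA 3 and TA 5, and 1353 to 3786 with 1 array left out, the highest without EOM 1, where the median over all probe sets was -0.14. Uncalled estimates that changed sign were Lgr4 with quantile normalization (-0.078) and with 1 array left out (-0.087 to 0.25), the second Rspo2 probe set with median centring (0.033) and 1 array left out (-0.26 to 0.11), and the second Znrf3 probe set with array weights (0.15), without the 3 arrays (0.23) and with 1 array left out (-0.36 to 0.10). Ctnnb1 changed sign with array weights (0.078), without the 3 arrays (0.15) and with 1 array left out (-0.27 to 0.16), and Tnfrsf19 with the mean of its probe sets (-0.014) and 1 array left out (-0.12 to 0.21). The cause was not tested. No pairing by replicate number was visible. Deviations of same-numbered arrays correlated at -0.325 to 0.162, and 1 of 6 correlated best with its own number. Since EOM 1, TA 3 and TA 5 stand apart and enter these correlations, the check cannot tell whether same-numbered arrays share a source. With the replicate number as a block 1435 probe sets were called, members higher stayed at 1 and lower at 0, and Lgr5 was at 1.71 (adjusted p = 0.0313). Signal near background limits Rspo4, Rnf43 and the second probe sets. It also limits the main probe set of Lgr6 in both muscles, and those of Rspo1, Rspo2 and Lgr5 in TA.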
